A study of Rattus norvegicus with 42 samples.

Results

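Genes of the mitochondrial carrier family Slc25, with the uncoupling proteins Ucp1, Ucp2 and Ucp3 that belong to the same family, were followed in liver, brain and lung of 1 rat and in mixtures of the labelled RNA of these tissues. Members were the probe sets, groups of short probes that read 1 transcript, whose platform annotation gives a single gene symbol of the form Slc25a with a number, or one of the 3 Ucp symbols. This gave 62 of 31042 non-control probe sets, which belong to 43 of 14217 named genes. 30 member genes had 1 probe set, 10 had 2, 2 had 3 and Slc25a15 had 6. Where a gene had several, the probe set with the highest mean over all arrays stood for it. 2 further probe sets are annotated with several symbols, Slc25a51 among them, and were not used.

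The study asked whether the make-up of a mixed tissue sample can be read from its expression profile, and how sensitively. Labelled RNA (cRNA) of liver, brain and lung from an untreated animal was put on Affymetrix rat arrays as pure liver, pure brain and pure lung, or after mixing in 11 sets of known percentages. The labels give an age of 9 to 12 weeks and name neither strain nor sex. Each of the 14 groups had 3 technical replicate arrays, 42 arrays in all. Mixture names give the percent of liver, then brain, then lung: 5/25/70, 25/70/5, 45/45/10, 50/30/20, 50/40/10, 55/20/25, 55/30/15, 60/35/5, 65/34/1, 70/25/5 and 70/5/25.

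Values are log2 levels after RMA, a normalization that gives arrays similar distributions, and array medians lay between 5.48 and 5.83. Replicate arrays had a median SD of 0.12 for liver and 0.09 for both brain and lung, and the number of arrays limits the precision. All arrays carry RNA of 1 animal, so a p-value here speaks only of the spread from array to array. In bulk tissue, fewer cells of a type and less RNA per cell cannot be told apart. Defining markers were enriched in their own tissue for 6 of 6 liver genes, 6 of 6 brain genes and 5 of 5 lung genes. The lung also carried 4 of 5 heart muscle markers (Myh6 at a log2 level of 9.32), and the brain had the liver marker Alb at 12.21, against 5.07 in lung. Levels of different genes come from different probes, so members are set beside each other only by their differences between tissues.

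Carriers of this family move metabolites, nucleotides and cofactors across the inner membrane of mitochondria, which is closed to most charged molecules. The adenine nucleotide carriers exchange ATP for ADP, the uncoupling protein Ucp1 lets protons back into the matrix in brown fat, and others feed the urea cycle, fatty acid oxidation, the malate-aspartate shuttle and the making of haem and iron-sulfur clusters. In liver the family is best known for the ornithine and aspartate carriers that serve the urea cycle, and in brain for the aspartate-glutamate carrier that lets neurons use cytosolic NADH.

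RefSeq promoter sequences (build GRCr8) were matched by gene ID to 37 of the 43 genes. The 4 stretches here are the 250 bases before the annotated start of a pair of aspartate-glutamate carriers with opposite tissue patterns, Slc25a13 and Slc25a12, and of the lung-enriched members Slc25a24 and Ucp2. Capitals mark GC boxes (GGGCGG) and CCAAT boxes on either strand. The windows lie at chr4:35328361-35328610 (minus strand), chr3:76599537-76599786 (minus strand), chr2:199449175-199449424 (plus strand) and chr1:164251123-164251372 (plus strand).
Slc25a13: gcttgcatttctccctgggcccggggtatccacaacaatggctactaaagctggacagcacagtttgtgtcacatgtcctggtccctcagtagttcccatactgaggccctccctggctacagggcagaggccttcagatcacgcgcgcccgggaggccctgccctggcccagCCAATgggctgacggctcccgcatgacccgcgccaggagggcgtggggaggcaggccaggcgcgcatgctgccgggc
Slc25a12: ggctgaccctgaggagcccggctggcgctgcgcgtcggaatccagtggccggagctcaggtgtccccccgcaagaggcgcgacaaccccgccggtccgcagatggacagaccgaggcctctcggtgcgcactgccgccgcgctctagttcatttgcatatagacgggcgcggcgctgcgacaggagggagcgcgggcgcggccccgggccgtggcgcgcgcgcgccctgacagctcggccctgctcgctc
Slc25a24: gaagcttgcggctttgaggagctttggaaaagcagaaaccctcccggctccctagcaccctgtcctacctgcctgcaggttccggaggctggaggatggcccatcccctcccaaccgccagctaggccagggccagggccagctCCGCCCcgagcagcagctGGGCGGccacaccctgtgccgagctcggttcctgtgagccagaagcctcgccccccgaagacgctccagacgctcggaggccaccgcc
Ucp2: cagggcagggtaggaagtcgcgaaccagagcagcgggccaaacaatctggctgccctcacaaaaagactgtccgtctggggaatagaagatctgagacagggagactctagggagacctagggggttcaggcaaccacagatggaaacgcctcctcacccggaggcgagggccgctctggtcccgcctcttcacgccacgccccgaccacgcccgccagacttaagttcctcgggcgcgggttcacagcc
The Slc25a13 stretch held 1 CCAAT box, the Slc25a24 stretch held 2 GC boxes and the other two held neither.

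Over the same 250-base window, a GC box stood in 21 of 37 member promoters (56.8%), against 32.4% of the 27457 promoters in the table. A CCAAT box stood in 19 of 37 (51.4%), against 34.3% of all promoters. An inverted CCAAT box (ATTGG) can share its last letters with a GC box, and both were then counted. TATAAA was found in 3 member promoters (8.11%), against 13.1% of all. The NRF-1 motif and the letters TCAAGGTCA (an ERR motif) and TGTTTAC (a FOX motif) were in none of the 37 windows and in 4.17%, 0.368% and 3.25% of all promoters. All motifs were searched on both strands. Median GC content was 58.8% in member promoters and 52% in all promoters. GC boxes were found in 5 of 9 promoters of liver-enriched members, 3 of 6 of brain-enriched members, 1 of 3 of lung-enriched members and 12 of 19 of the others. A match here is a string of letters and not a shown binding site.

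Differences between tissues were common in the family. A gene was called between pure tissues at an adjusted p under 0.05 (limma, Benjamini-Hochberg over all probe sets) and at least 2-fold, and enriched in a tissue when it was called higher there than in both others. Between liver and brain 23 of the 43 members were called, beside a background of 39.3% of all 14217 genes, with 15 higher in liver (background 19.3%) and 8 lower (background 20.0%). Between liver and lung 20 were called (background 34.3%), with 15 higher in liver (background 13.8%) and 5 lower (background 20.6%). Between brain and lung 17 were called (background 36.3%), with 10 higher in brain (background 15.5%) and 7 lower (background 20.8%). 32 members were called in at least 1 pair, beside 56.4% of all genes.

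11 members were enriched in liver (background 9.61%), 6 in brain (background 11.7%) and 3 in lung (background 11.5%). The range between the highest and the lowest tissue mean had a median of 1.93 on the log2 scale over members, against 1.16 over all genes. It was under 1 for 25.6% of members and 43.6% of all genes. The median log2 difference of members was 0.41 for liver minus brain, 0.33 for liver minus lung and 0.21 for brain minus lung, against 0.19, 0.03 and -0.09 over all genes. The direction of such counts rests on the scaling. After a shift of the arrays along a curve set by their added hybridisation controls, the median over all genes moved to -0.62, -0.86 and -0.17. The member medians stayed 0.36, 0.41 and 0.24 above it. Liver-brain calls among members became 9 higher in liver and 15 lower, and liver-lung calls 9 higher and 13 lower. Shares of all genes called under this shift are not given, so these counts are not read as a result about the carriers.

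**Figure D1:**
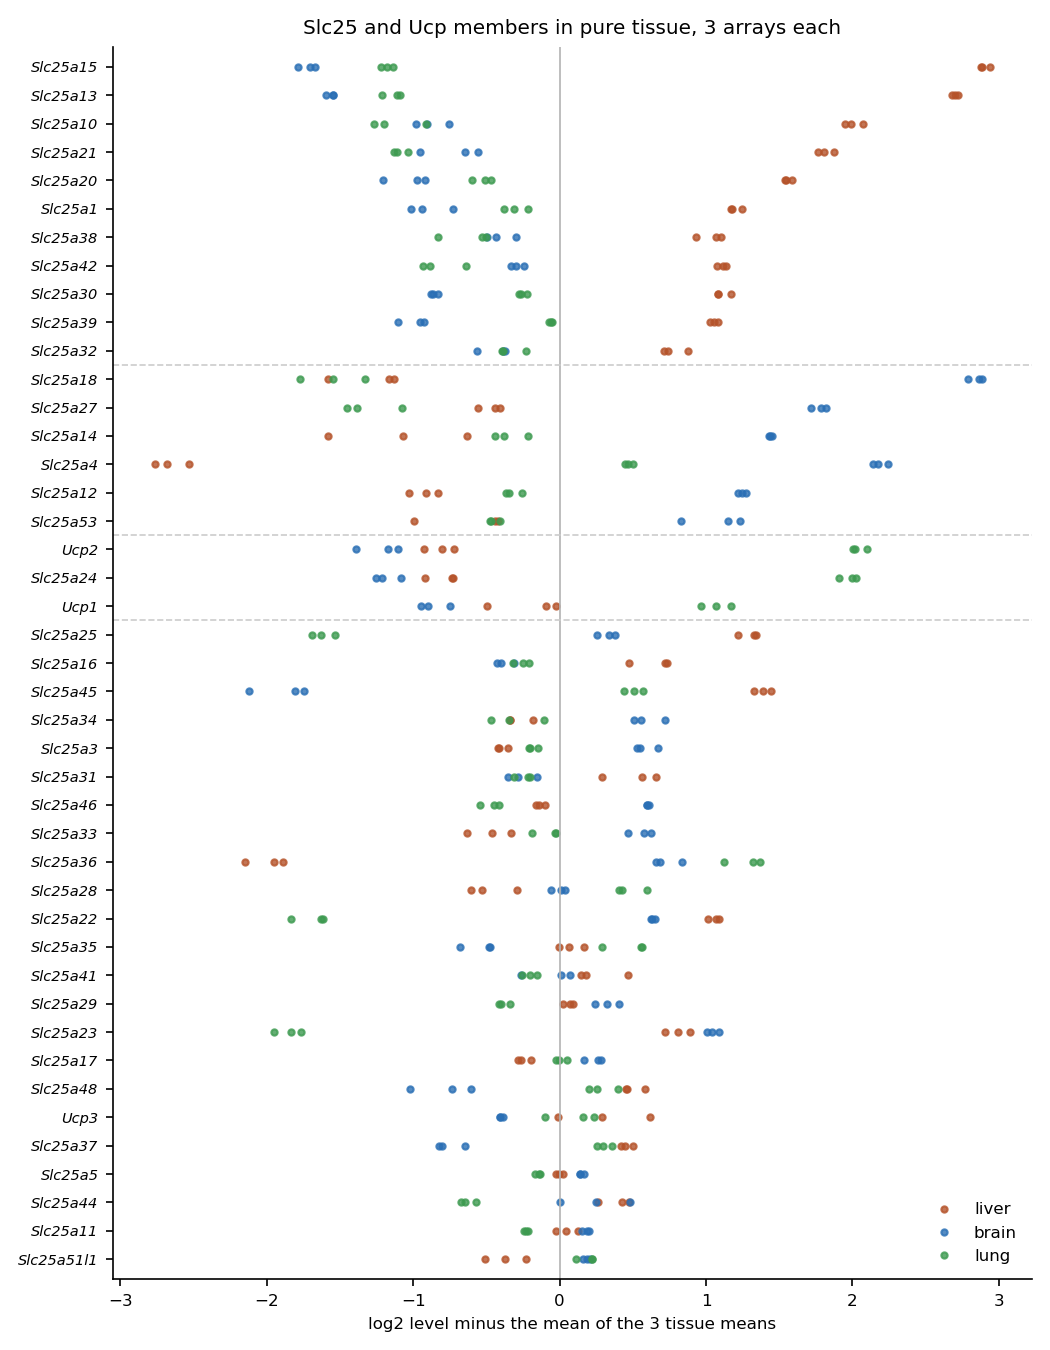
Log2 level of each of the 43 member genes on each pure-tissue array (3 arrays each for liver, brain and lung), minus the mean of the 3 tissue means of that gene. Dashed lines part the 11 liver-enriched, 6 brain-enriched and 3 lung-enriched members from the rest, and Slc25a15, Slc25a4 and Slc25a18 show the widest separation.

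Slc25a15 and Slc25a13, the carriers that serve the urea cycle, stood farthest above both other tissues in liver. Slc25a15, which exchanges ornithine for citrulline, had log2 levels of 10.85, 10.86 and 10.91 in liver, against 6.18, 6.27 and 6.30 in brain and 6.79, 6.83 and 6.75 in lung. The liver arrays lay far above all others, and liver exceeded brain 24.6-fold (log2 difference 4.62, 95% interval 4.49 to 4.75, limma adjusted p = 9.12e-36) and lung 16.9-fold (4.08, 3.95 to 4.21, adjusted p = 6.75e-34). All 6 Slc25a15 probe sets were liver-enriched, with log2 differences of liver minus brain between 1.07 and 5.18, the smallest from a dim probe set with a liver mean of 4.42. Slc25a13, an aspartate-glutamate carrier that sends aspartate out of the mitochondrion, had log2 levels of 10.92, 10.89 and 10.91 in liver, against 6.65, 6.61 and 6.66 in brain and 6.99, 7.11 and 7.10 in lung. Liver again did not overlap with the other tissues and was 19.2-fold above brain (log2 difference 4.27, 95% interval 4.18 to 4.35, adjusted p = 3.96e-40) and 14.3-fold above lung (3.84, adjusted p = 1.2e-38). A 2nd Slc25a13 probe set gave log2 differences of 4.54 and 4.07.

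Carriers of di- and tricarboxylates were higher in liver for 3 of 4 measured genes. Slc25a10, which exchanges malate or succinate for phosphate, had log2 levels of 8.88, 8.92 and 9.00 in liver, against 5.95, 6.02 and 6.17 in brain and 6.01, 5.66 and 5.73 in lung. Liver was 7.38-fold above brain (adjusted p = 1.32e-26) and 8.76-fold above lung (adjusted p = 1.75e-27), while brain and lung arrays overlapped. Slc25a21, which carries oxoadipate from lysine and tryptophan breakdown, had log2 levels of 6.74, 6.69 and 6.80 in liver, against 4.37, 4.28 and 3.97 in brain and 3.80, 3.90 and 3.82 in lung. Its liver level was 5.80-fold above brain (adjusted p = 8.37e-21) and 7.50-fold above lung (adjusted p = 2.07e-22). Slc25a1, which exports citrate for fatty acid synthesis, averaged a log2 level of 9.36 ± 0.04 in liver, against 7.27 ± 0.15 in brain and 7.86 ± 0.08 in lung (SD, n = 3 each). The fourth, the oxoglutarate-malate carrier Slc25a11 of the malate-aspartate shuttle, differed by 1.33-fold at most, with mean log2 levels of 9.19 in liver, 9.32 in brain and 8.91 in lung.

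Carriers of the fatty acid route and of cofactors were 3 of the 6 other liver-enriched members. Slc25a20, the carnitine-acylcarnitine carrier that brings fatty acids to oxidation, had log2 levels of 9.16, 9.21 and 9.17 in liver, against 6.42, 6.65 and 6.71 in brain and 7.15, 7.03 and 7.11 in lung. The 3 tissues did not overlap, and liver was 6.03-fold above brain (adjusted p = 8.1e-30) and 4.24-fold above lung (adjusted p = 9.22e-27). Slc25a42, a coenzyme A carrier, was 2.64-fold above brain and 3.81-fold above lung, and Slc25a32, a folate carrier, 2.33-fold and 2.16-fold. Slc25a38, the glycine carrier of haem synthesis, was 2.72-fold above brain and 3.15-fold above lung, and Slc25a39, a glutathione carrier in human and mouse cells, was 4.14-fold and 2.17-fold above. 1 of 2 probe sets each of Slc25a32 and Slc25a39 did not reach 2-fold against both tissues. Under the shift by hybridisation controls 5 members stayed liver-enriched, Slc25a15, Slc25a13, Slc25a10, Slc25a21 and Slc25a20, and the other 6, Slc25a1, Slc25a38, Slc25a42, Slc25a30, Slc25a39 and Slc25a32, did not.

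In brain the glutamate carrier Slc25a18 and the neuronal uncoupling proteins led. Slc25a18 had log2 levels of 4.59, 4.17 and 4.62 in liver, 8.62, 8.64 and 8.55 in brain, and 4.42, 4.21 and 3.98 in lung. Brain arrays stood apart while liver and lung overlapped, and brain was 17.7-fold above liver (log2 liver minus brain -4.14, adjusted p = 2.55e-27) and 21.1-fold above lung (log2 brain minus lung 4.40, adjusted p = 5.67e-28). Slc25a27, an uncoupling protein of neurons, had log2 levels of 4.62, 4.58 and 4.47 in liver, 6.84, 6.74 and 6.81 in brain, and 3.57, 3.64 and 3.95 in lung. It was 4.73-fold above liver (adjusted p = 8.99e-16) and 8.43-fold above lung (adjusted p = 1.19e-19), with the same highest tissue in all 3 of its probe sets and enrichment in 2. Slc25a14, another uncoupling protein of brain, had log2 levels of 5.54, 6.50 and 6.06 in liver, 8.58, 8.57 and 8.56 in brain, and 6.68, 6.75 and 6.91 in lung. Its liver arrays spread widely (SD 0.48) yet stayed below brain, which was 5.80-fold above liver (adjusted p = 1.66e-20) and 3.45-fold above lung (adjusted p = 4.2e-16). The platform marks this probe set as one that may read several transcripts.

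With 1 probe set per gene, the adenine nucleotide carrier Slc25a4 had the widest tissue range of the family, though 2 further Slc25a15 probe sets ranged over 5.18 and 4.94. Slc25a4 log2 levels were 7.03, 7.26 and 7.12 in liver, 11.97, 12.04 and 11.94 in brain, and 10.27, 10.30 and 10.24 in lung. The 3 tissues were fully separate, with brain 28.8-fold above liver (log2 liver minus brain -4.85, adjusted p = 5.9e-41) and 3.28-fold above lung (adjusted p = 1.79e-27), and lung 8.76-fold above liver (adjusted p = 3.01e-35). Slc25a4 is the main form of heart and skeletal muscle. Heart muscle markers summed to linear levels of 123 to 170 in liver, 144 to 148 in brain and 1618 to 1656 in lung arrays. Skeletal muscle markers summed to 557 to 582 in liver, 213 to 237 in brain and 977 to 1009 in lung. The part of muscle in the lung level was not tested. Slc25a12, the aspartate-glutamate carrier of brain and muscle, had log2 levels of 6.71, 6.63 and 6.51 in liver, 8.81, 8.78 and 8.75 in brain, and 7.28, 7.19 and 7.17 in lung. No arrays overlapped, and brain was 4.50-fold above liver (adjusted p = 1.25e-27) and 2.97-fold above lung (adjusted p = 2.58e-23). Slc25a53, whose substrate is unsettled, was 3.22-fold and 2.87-fold higher in brain.

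Lung had Ucp2, Slc25a24 and Ucp1. Ucp2, an uncoupling protein of many tissues and rich in macrophages, had log2 levels of 6.64, 6.43 and 6.55 in liver, 6.19, 6.25 and 5.97 in brain, and 9.36, 9.37 and 9.46 in lung. Lung stood far above the others, 7.25-fold over liver (log2 liver minus lung -2.86, adjusted p = 2.04e-25) and 9.60-fold over brain (log2 brain minus lung -3.26, adjusted p = 3.39e-27). Macrophage markers were also highest in lung, with 2 of 4 enriched there. Lung exceeded liver 23.0-fold for Lyz2, but 2.24-fold for Csf1r, 1.91-fold for Cd68 and 1.27-fold for Aif1. The part of macrophages in the Ucp2 level was not tested. Slc25a24, a calcium-controlled carrier of ATP-Mg and phosphate, had log2 levels of 6.56, 6.74 and 6.75 in liver, 6.22, 6.26 and 6.40 in brain, and 9.50, 9.47 and 9.38 in lung. It was 6.83-fold above liver (adjusted p = 1.12e-21) and 8.94-fold above brain (adjusted p = 1.98e-23), with no overlap between lung and the others.

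Ucp1, the proton carrier of brown fat, was dim everywhere, with log2 levels of 4.17, 4.25 and 3.78 in liver, 3.52, 3.37 and 3.32 in brain, and 5.34, 5.24 and 5.44 in lung. Lung was above liver 2.41-fold (adjusted p = 2.39e-10) and above brain 3.82-fold (adjusted p = 5.31e-15), and it did not overlap with either. All 3 Ucp1 means lay under 5.73, the median of all values, as did the means of 4 other members, and the highest reading of the bacterial dap probe sets on a pure-tissue array was 3.02. None of 4 other brown fat markers was enriched in lung. Elovl3 had mean log2 levels of 2.81 in liver, 2.75 in brain and 2.59 in lung, all under that dap reading, so it could not separate the tissues. Cidea had 8.92 in liver, 5.03 in brain and 7.05 in lung. Of 4 white fat markers, Fabp4 was enriched in lung (6.47-fold over liver) and Cidec in liver. The part of fat cells in the Ucp1 level was not tested.

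Carriers with related substrates often took different tissues. Among the aspartate-glutamate carriers, Slc25a13 was called higher in liver and Slc25a12 lower in liver, relative to brain, with log2 liver minus brain of 4.27 and -2.17. Of the glutamate carriers, Slc25a18 was high in brain alone, while Slc25a22 had log2 levels of 9.22, 9.20 and 9.14 in liver, 8.78, 8.76 and 8.76 in brain, and 6.50, 6.52 and 6.30 in lung. Slc25a22 was thus 6.72-fold above lung in liver and 5.02-fold above lung in brain (adjusted p = 2.24e-30 and 2.86e-28), and liver and brain lay 1.34-fold apart. Among adenine nucleotide carriers, Slc25a5, the widespread form, had the narrowest range of all members, with log2 levels of 11.68, 11.70 and 11.72 in liver, 11.84, 11.87 and 11.84 in brain, and 11.56, 11.57 and 11.53 in lung. Its tissue means spanned 0.30 on the log2 scale, and 6.51% of all genes had a narrower span, while those of Slc25a4 spanned 4.85. Slc25a31, the form of testis, had log2 levels of 3.99, 3.71 and 4.08 in liver, 3.07, 3.27 and 3.14 in brain, and 3.20, 3.22 and 3.11 in lung, close to the dap controls.

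The 4 ATP-Mg and phosphate carriers split between tissues as well. Slc25a23 had log2 levels of 7.99, 8.09 and 8.17 in liver, 8.32, 8.28 and 8.37 in brain, and 5.44, 5.51 and 5.33 in lung. Slc25a25 had 8.83, 8.71 and 8.82 in liver, 7.74, 7.82 and 7.87 in brain, and 5.80, 5.96 and 5.86 in lung. Both were lowest in lung, where Slc25a24 was highest. Liver was 6.31-fold above lung for Slc25a23 (adjusted p = 8.36e-26) and 7.53-fold for Slc25a25 (adjusted p = 1.65e-30), and brain was 7.44-fold and 3.84-fold above lung. The probe sets of Slc25a23 disagreed on whether liver or brain was higher, with log2 liver minus brain between -0.24 and 0.67. Slc25a41 was dim, with log2 levels of 4.43, 4.14 and 4.11 in liver, 3.97, 4.03 and 3.70 in brain, and 3.70, 3.76 and 3.81 in lung, and no pair was called.

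The mitoferrins bring iron into mitochondria. Slc25a28, the form of most tissues, had log2 levels of 7.70, 7.78 and 8.01 in liver, 8.25, 8.32 and 8.35 in brain, and 8.72, 8.74 and 8.91 in lung. Its largest difference, lung over liver at 1.94-fold, stayed just under 2-fold. Liver minus lung became called without liver array 3 (log2 difference -1.05) and under the shift by hybridisation controls (-1.93). That shift also called Slc25a28 lower in liver than in brain (-1.30). Slc25a37, the form of red cell precursors, had log2 levels of 6.58, 6.53 and 6.50 in liver, 5.26, 5.44 and 5.28 in brain, and 6.38, 6.44 and 6.34 in lung. It was lower in brain, with liver 2.32-fold above (adjusted p = 5.05e-15) and lung 2.09-fold above (adjusted p = 1.89e-13). Under the shift by hybridisation controls its liver minus brain difference was 0.36 on the log2 scale (adjusted p = 0.177) and no longer called. Red cell markers were lowest in brain too, at summed linear levels of 5073 to 5169 in liver, 2676 to 2754 in brain and 12690 to 12870 in lung; their part was not tested.

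Of the 6 members grouped here as uncoupling proteins, Slc25a27 and Slc25a14 were brain-enriched, Ucp2 and Ucp1 lung-enriched and Slc25a30 liver-enriched. Slc25a30 had log2 levels of 8.88, 8.97 and 8.88 in liver, against 6.96, 6.93 and 6.92 in brain and 7.58, 7.54 and 7.52 in lung. The tissues did not overlap, and liver was 3.92-fold above brain (adjusted p = 6.42e-28) and 2.58-fold above lung (adjusted p = 5.76e-23). Ucp3, the form of skeletal muscle, had log2 levels of 5.39, 6.02 and 5.70 in liver, 5.02, 5.00 and 5.00 in brain, and 5.30, 5.64 and 5.57 in lung. Liver and lung overlapped, no pair reached 2-fold, and its 2 probe sets named different highest tissues.

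**Figure D2:**
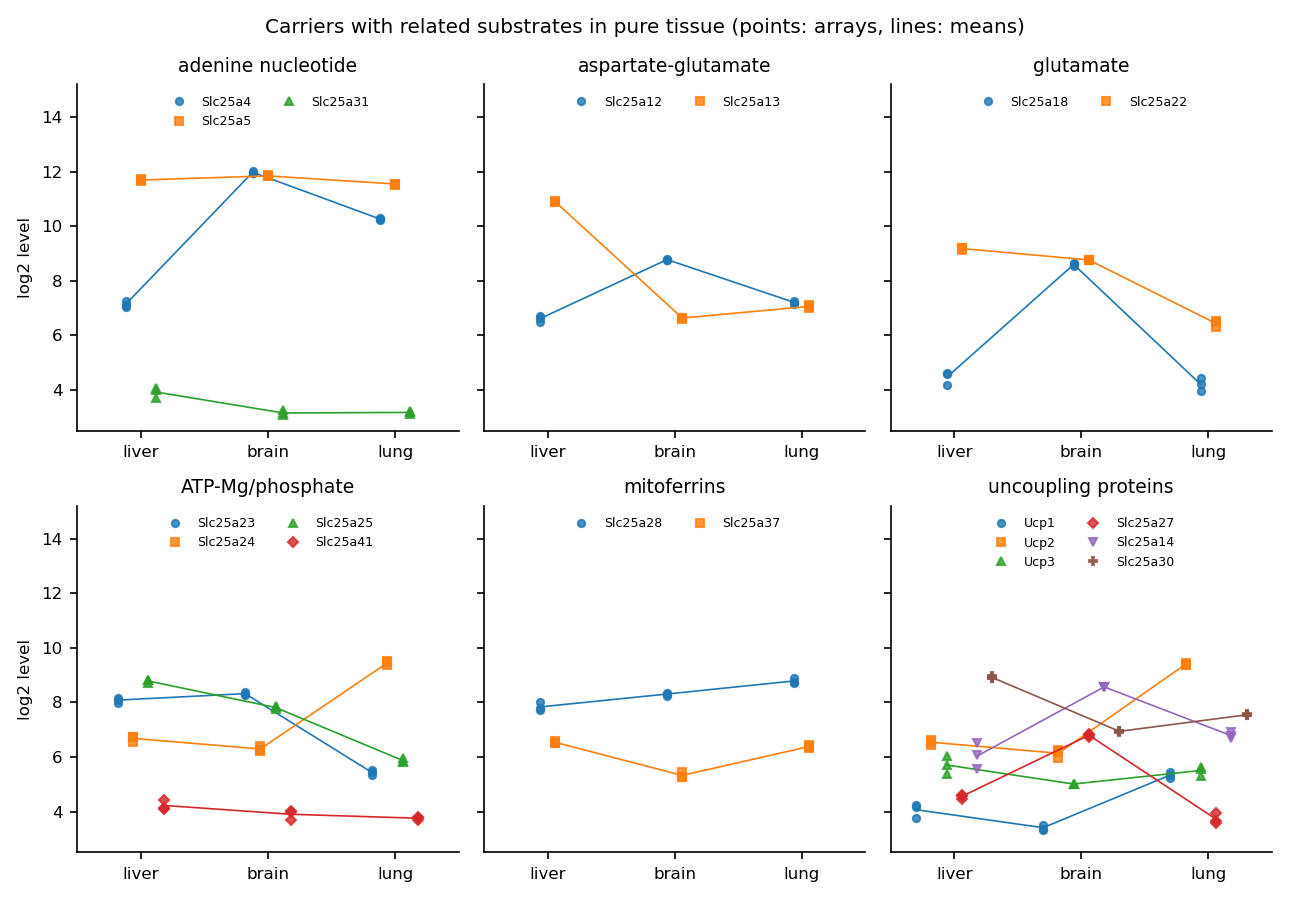
Log2 levels of carriers with related substrates in pure liver, brain and lung, 1 panel per substrate group; points are arrays (n = 3 per tissue) and lines join the tissue means of a gene. From liver to brain Slc25a13 falls and Slc25a12 rises, and Slc25a24 is highest in lung, where Slc25a23 and Slc25a25 are lowest.

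The remaining members varied less, or between a pair of tissues. Slc25a36, a pyrimidine nucleotide carrier, was low in liver, with a mean log2 level of 6.60 ± 0.14 in liver, 9.33 ± 0.10 in brain and 9.87 ± 0.13 in lung (SD, n = 3 each). Brain was 6.61-fold and lung 9.63-fold above liver (adjusted p = 1.51e-28 and 1.06e-30), and 2 of 2 probe sets were highest in lung. Slc25a33, the other pyrimidine carrier, was 2.04-fold lower in liver than in brain. Slc25a45, whose role is little known, was low in brain, with mean log2 levels of 7.77 ± 0.06 in liver, 4.49 ± 0.20 in brain and 6.89 ± 0.07 in lung, and liver 9.71-fold and lung 5.27-fold above brain (adjusted p = 1.43e-27 and 2.17e-23). Slc25a48 was low in brain too, with liver 2.44-fold and lung 2.10-fold above it. Its 2nd probe set put brain and lung closer, at log2 levels of 4.46, 4.02 and 4.10 in brain and 4.97, 4.74 and 4.87 in lung. Slc25a46, a protein of the outer membrane that shapes mitochondria, was 2.10-fold higher in brain than in lung, and Slc25a44, a carrier of branched-chain amino acids, 2.03-fold higher in liver than in lung. Slc25a16, a carrier tied to coenzyme A, was 2.03-fold higher in liver than in brain, and Slc25a35 was 2.02-fold lower in brain than in lung.

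Several of these calls sat at the 2-fold limit, a log2 difference of 1, and leaving out 1 array ended them. For Slc25a16, liver minus brain was 0.98 without liver array 1, 0.98 without liver array 3 and 0.998 without brain array 2. For Slc25a33 it was -0.95 without liver array 3 and -0.998 without brain array 2. For Slc25a44, liver minus lung was 0.98 without liver array 2 and 0.997 without lung array 1. Brain minus lung was -0.95 for Slc25a35 without brain array 1, -0.97 without lung array 1 or 2, and -0.95 for Slc25a48 without brain array 3. The shift by hybridisation controls also ended calls in this group. Under it liver minus brain was 0.17 for Slc25a16 (adjusted p = 0.544) and 0.43 for Slc25a48 (adjusted p = 0.103). Liver minus lung was 0.11 for Slc25a44 (adjusted p = 0.692), and brain minus lung was 0.78 for Slc25a46 (adjusted p = 0.00339), under 2-fold.

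With the deposited scaling and all arrays, 11 members were called in no pair: Slc25a3, Slc25a5, Slc25a11, Slc25a17, Slc25a28, Slc25a29, Slc25a31, Slc25a34, Slc25a41, Slc25a51l1 and Ucp3. Slc25a3, the phosphate carrier that ATP synthesis depends on, came close, with a mean log2 level of 10.97 ± 0.04 in liver, 11.95 ± 0.08 in brain and 11.18 ± 0.03 in lung, and brain 1.97-fold above liver. Its liver minus brain difference became called without brain array 1 (-1.01) and with quantile normalization repeated (-1.20). Slc25a17, the carrier of peroxisomes, lay within 1.40-fold in all pairs, and Slc25a29, a carrier of basic amino acids, within 1.63-fold. The shift by hybridisation controls called liver below brain for Slc25a17 (-1.28), Slc25a29 (-1.12), Slc25a34 (-1.74) and Slc25a51l1 (-1.41), as for Slc25a28. It also called liver below lung for Slc25a17 (-1.22) and Slc25a51l1 (-1.47). Median centring called Slc25a31 (liver minus brain 1.01), and subtraction of the 5th percentile called Slc25a34 (liver minus brain -1.13).

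Partner genes outside the family were read from lists of the pathways that these carriers serve. The lists are short, and their counts stand beside the same shares over all genes. These were 39.3% called between liver and brain, 34.3% between liver and lung, 36.3% between brain and lung, and 9.61% enriched in liver. All 6 measured urea cycle genes were liver-enriched, from Nags at 23.7-fold over brain to Otc, ornithine transcarbamylase, at 221-fold, beside 24.6-fold for Slc25a15 and 19.2-fold for Slc25a13. Of 6 genes of the carnitine route, 4 were higher in liver than in both other tissues, with Cpt2 13.3-fold and Cpt1a 5.58-fold above brain, beside 6.03-fold for Slc25a20, and 1, the neuronal Cpt1c, was 5.62-fold above liver in brain. None of 4 malate-aspartate shuttle enzymes was called between liver and brain. 3 of them were higher than in lung in both tissues, led by Got1, the cytosolic aspartate aminotransferase, at 6.71-fold in liver and 10.5-fold in brain.

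Both genes of the pyruvate carrier were higher in liver than in lung (Mpc1 3.41-fold, Mpc2 3.20-fold), and Mpc1 was 2.07-fold above brain. In glutamate metabolism 2 of 3 genes were liver-enriched, Gls2 at 4.87-fold and Glud1 at 3.11-fold over brain. Of 3 haem and iron-sulfur genes, Alas1 (6.51-fold over brain) and Fech (2.67-fold) were liver-enriched. Of 5 genes of citrate use, Fasn was 2.30-fold higher and Cs, citrate synthase, 3.54-fold lower in liver than in brain. Of 8 genes that import carriers into the inner membrane, 2 were lower in liver than in brain (background 20.0%), Tomm70 3.07-fold and Timm8b 2.23-fold, and none was higher. In this list 2 were higher in liver than in lung (background 13.8%), Timm10 3.87-fold and Timm8a1 3.61-fold, and 4 were higher in brain than in lung (background 15.5%). Among 5 genes of the calcium uniporter, Micu3 was 10.7-fold above liver in brain and Mcub 4.40-fold above liver in lung. The porins Vdac1, Vdac2 and Vdac3 were not called between liver and brain, and Vdac1 was 2.63-fold higher in brain than in lung.

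In the mixtures the same carriers followed the share of their tissue. Pairs of mixtures were called at an adjusted p under 0.05 in the same limma fit, with no fold limit. Where liver was exchanged for brain, 70/25/5 against 25/70/5, 30 members were called (background 61.8%), 16 higher in 70/25/5 (background 29.3%) and 14 lower (background 32.5%). The 3 highest were Slc25a15, Slc25a13 and Slc25a10, with log2 differences of 1.63, 1.53 and 1.38, and expected values of 1.34, 1.31 and 1.08 from the pure means. The 3 lowest were Slc25a4, Slc25a18 and Slc25a53, with -1.003, -0.76 and -0.72, and expected values of -1.32, -1.29 and -0.71. Slc25a13 had log2 levels of 10.39, 10.38 and 10.31 in 70/25/5, against 8.81, 8.79 and 8.89 in 25/70/5. Slc25a4 had 10.64, 10.62 and 10.65 in 70/25/5, against 11.63, 11.65 and 11.64 in 25/70/5. Neither gene's arrays overlapped between these mixtures.

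Where liver was exchanged for lung, 70/25/5 against 5/25/70, 35 members were called (background 70.0%), 24 higher in 70/25/5 (background 32.7%) and 11 lower (background 37.3%). Slc25a15, Slc25a13 and Slc25a10 again led, with log2 differences of 2.88, 2.83 and 1.97 against expected 2.81, 2.68 and 2.17. Slc25a24, Ucp2 and Ucp1 were lowest, with -2.11, -2.00 and -1.13 against expected -2.03, -2.09 and -0.96. Slc25a24 had log2 levels of 6.78, 6.84 and 6.68 in 70/25/5, against 8.90, 8.92 and 8.82 in 5/25/70, and its arrays were fully separate. Slc25a48 was called 0.30 lower in 70/25/5 (adjusted p = 0.0405), although its expected difference was 0.16, and its arrays, at 4.67, 4.93 and 4.72 in 70/25/5 and 4.90, 5.04 and 5.29 in 5/25/70, overlapped. A 2nd Slc25a48 probe set went the other way, with means of 4.83 in 70/25/5 and 4.52 in 5/25/70.

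Where brain was exchanged for lung, 70/5/25 against 70/25/5, 27 members were called (background 54.4%), 14 higher in 70/5/25 (background 31.4%) and 13 lower (background 23.0%). Slc25a24, Ucp2 and Ucp1 were highest, with log2 differences of 1.48, 1.41 and 0.70 against expected 0.99, 1.03 and 0.45. Slc25a18, Slc25a27 and Slc25a14 were lowest, with -2.05, -1.23 and -1.08 against expected -1.52, -0.83 and -0.66. Slc25a18 had log2 levels of 4.99, 5.47 and 5.57 in 70/5/25, against 7.47, 7.38 and 7.33 in 70/25/5. All 6 of these genes differed by more than the pure means predict. The 3 comparisons share the 70/25/5 arrays, so they are not independent of each other.

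**Figure D3:**
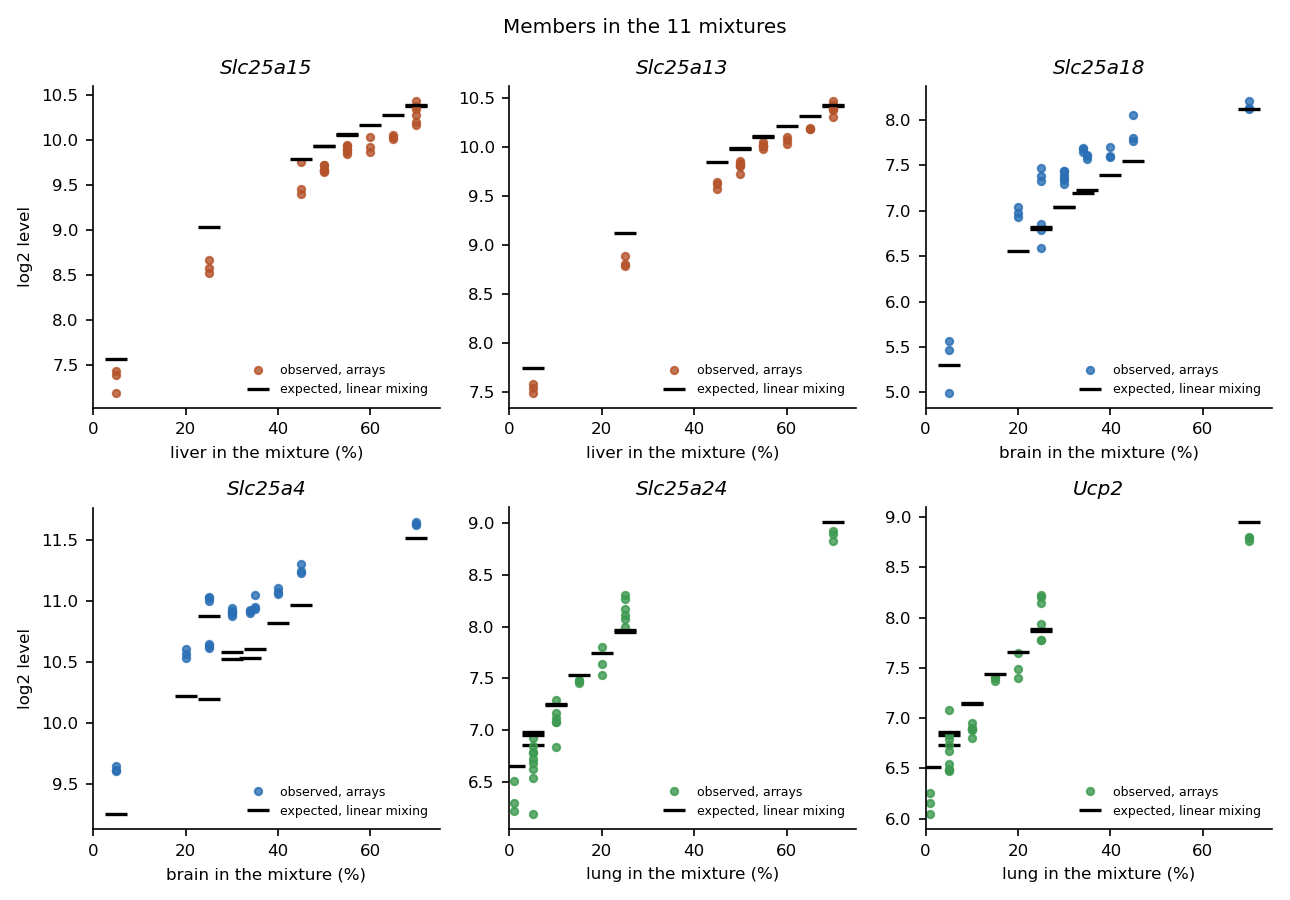
Log2 level of 6 members on the 33 mixture arrays (points) against the percentage of the tissue in which each is enriched; black bars give the level expected from linear mixing of the pure means. Slc25a13 and Slc25a15 lie at or below the bars for most mixtures, while Slc25a4 lies above them in 11 of 11.

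Members called between pure tissues were mostly called the same way in the matching mixtures. This held for 21 of 23 members for liver and brain, 20 of 20 for liver and lung and 17 of 17 for brain and lung. Over all genes the shares were 96.4%, 93.7% and 92.3%. The 2 missed were Slc25a32, with a log2 difference of 0.32 (adjusted p = 0.0599), and Slc25a48, with 0.27 (adjusted p = 0.081), both dim members. Calls in the mixtures alone, with none at 2-fold between the pure tissues, came to 20.9%, 34.9% and 23.3% of members, against 23.9%, 37.3% and 20.8% of all genes.

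**Figure D4:**
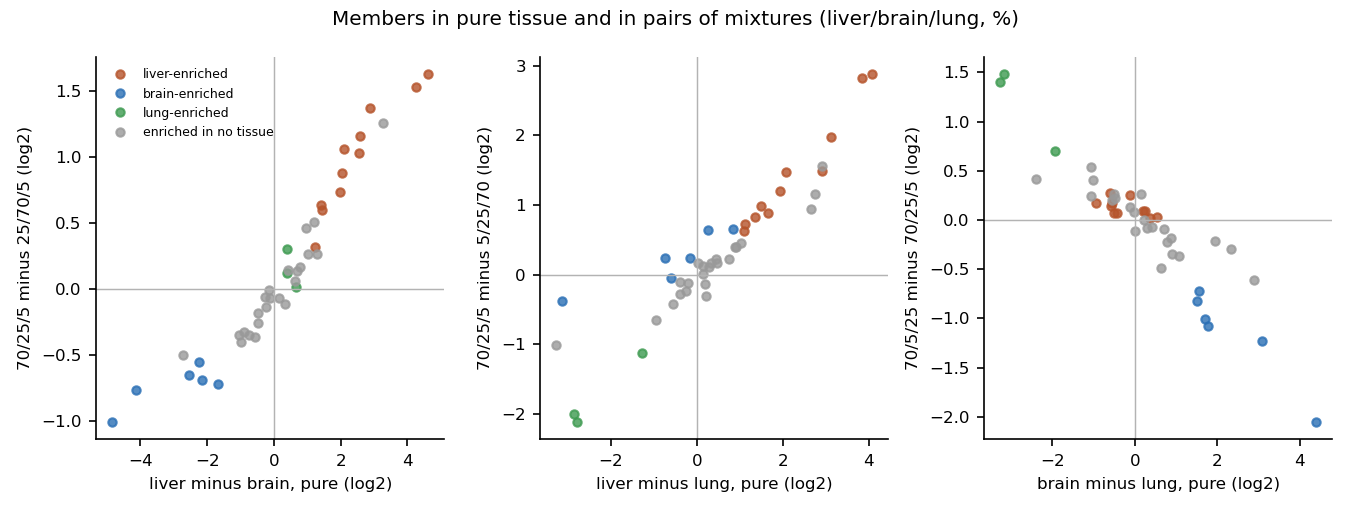
Log2 difference of the 43 member genes between 2 pure tissues (horizontal) and between the matching 2 mixtures (vertical), 1 panel per tissue pair. On the vertical axis Slc25a15 and Slc25a13 lie at the top of both liver panels, Slc25a4 at the bottom of the liver-brain panel, and Slc25a24 and Ucp2 at the bottom of the liver-lung panel; the third panel sets 70/5/25 minus 70/25/5 against brain minus lung, so its relation runs downward.

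To set the mixtures against linear mixing, the log2 level expected from the pure means, weighted by share and summed on the linear scale, was subtracted from the observed one and averaged over the 11 mixtures. This departure was called at an adjusted p under 0.05 and 1.5-fold. 4 members were called (background 6.06%), all below (background 5.56%) and 0 above (background 0.492%). The median departure was -0.21 over members and -0.21 over all genes. Slc25a21 was lowest at -1.07 ± 0.07 (SE, adjusted p = 1.35e-14), then Slc25a45 at -0.77 ± 0.05 (adjusted p = 2.64e-14) and Slc25a48 at -0.64 ± 0.07 (adjusted p = 5.12e-10). All 3 lay below in 11 of 11 mixtures. In the 2nd probe set of Slc25a48 the departures of single mixtures ran from -0.71 to -0.28, and their mean fell short of the 1.5-fold limit. In 50/30/20, the observed mean of Slc25a21 was 4.74 and the expected 5.95, and in 70/25/5 it was 5.33 and 6.33. The fourth, Slc25a38, was at -0.59, next to the limit, and fell short of it when any of 14 single arrays was left out.

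The departures ran with the tissue of highest level. All 21 members highest in liver had a mean departure below 0 (median -0.40), as did 96.8% of all genes highest in liver (median -0.33). Of 15 members highest in brain, 7 lay below and 8 above (median 0.01), with 52% of all such genes below. Of 7 members highest in lung, 6 lay below (median -0.18), with 88.8% of all such genes below. Slc25a4 was the highest, at 0.31 ± 0.03 (SE, adjusted p = 7.35e-12) and above in 11 of 11 mixtures, but under 1.5-fold. In 70/25/5 its observed log2 level was 10.63 and the expected 10.20. In all, 34 members lay below and 9 above, beside a median departure of -0.21 over both members and all genes. Of the members, 26 lay below in every mixture and 3 above in every one. No share over all genes is given for these counts, so they are not read as particular to the family.

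**Figure D5:**
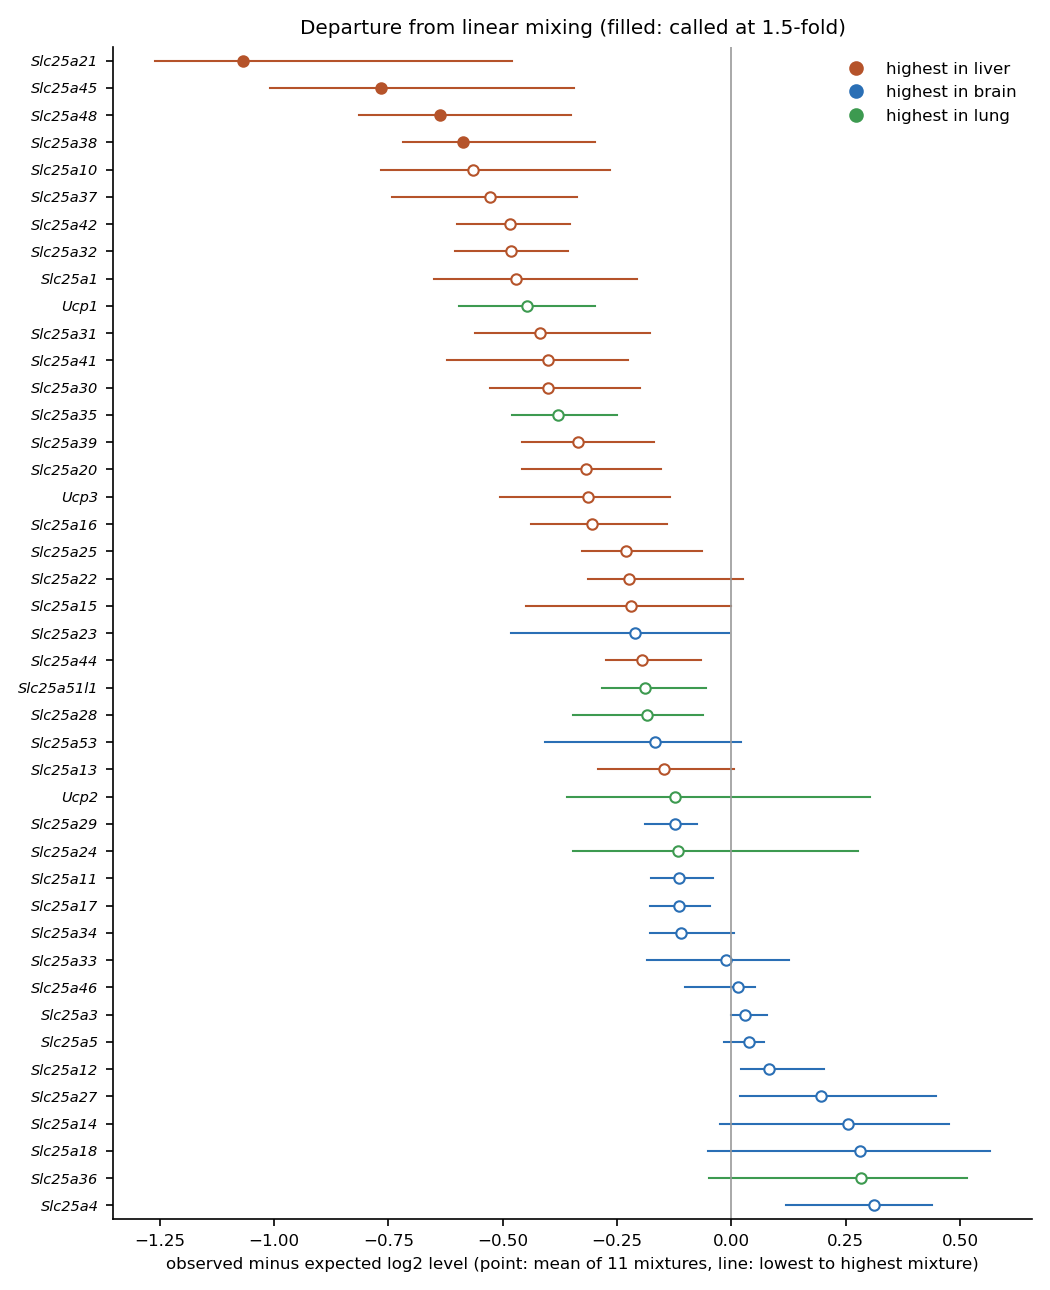
Mean departure of each of the 43 member genes from linear mixing over 11 mixtures (points, log2), with lines from the lowest to the highest mixture and colours for the tissue of highest level. The 4 filled points, Slc25a21, Slc25a45, Slc25a48 and Slc25a38, were called below, and all 21 liver points lie left of 0.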

How the data were processed

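Expression was measured on Affymetrix rat arrays, 42 in all, 3 technical replicates for each of 14 groups. What the authors deposited are log2 levels per probe set after RMA, per the labels' protocols, between 2.12 and 14.43. No RMA version is given in the sources used here. As RMA makes array distributions alike, tissues that spread their RNA over genes differently may be scaled unevenly. Mixing was done at the cRNA level, after extraction with Trizol and a column clean-up and labelling from 1 μg.

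The 57 control probe sets were left out. No replicate pair was identical (at most 28 equal values), so each array counted once. Gene names came from the platform annotation, all 62 members had a gene ID in the GRCr8 table, and 0 symbols changed. All arrays entered a single limma model (version 3.58.1 under R 4.3.3) of group means over 31042 probe sets, with 28 residual and 4.56 prior degrees of freedom and Benjamini-Hochberg adjustment over all of them. The error of a departure came from that fit by the delta method. The members and lists were chosen with earlier results of these data known. Named with values on every array were up to 5 enriched members per tissue, by the smaller of both differences, and groups of carriers with related substrates. Also named were the 3 largest calls each way per mixture pair and for departures, and up to 4 genes per pathway list. Alternatives covered scaling, background, variance model, dim probe sets, probe sets per gene, arrays in the fit, the scale of mixing and leaving out each array. The shift by hybridisation controls takes them as added equally to each array, which was not tested. The steps were tested on simulated data with known changes. Python 3.11.15 and matplotlib 3.10.9 made the figures.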

Additional observations from a re-analysis of the deposited data

How the results depend on the processing

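Scaling was the choice that mattered most. Counted over all 62 member probe sets in place of 1 per gene, 35 were called between liver and brain, beside 10393 of all 31042 probe sets. Between liver and lung 32 were called (8698 of all), 19 were enriched in liver (2259 of all) and 7 departed (1604 of all). The counts that follow are again of 1 probe set per gene. Shares over all genes are not given for them, so they show only how the member counts move with the setting. Median centring gave 12 departures, all below, and subtraction of the 5th percentile gave 8, all below. With shares applied to log2 values, 8 departed, 7 above and 1 below, with Slc25a15 at 0.91 and Slc25a13 at 0.85, since that scale puts the expected level lower. The shift by hybridisation controls left 5 members enriched in liver, 1 departure (Slc25a21), 19 calls for 70/25/5 against 5/25/70 and 10 for 70/5/25 against 70/25/5. Under it the sign turned, uncalled, for 70/25/5 minus 25/70/5 in Ucp2 (-0.16), Slc25a22 (-0.27) and Slc25a16 (-0.20). It also turned for 70/25/5 minus 5/25/70 in Slc25a11 (-0.33), Slc25a44 (-0.028), Slc25a45 (-0.092), Slc25a46 (-0.23), Slc25a16 (-0.084), Slc25a29 (-0.25) and Slc25a31 (-0.25). Repeated quantile normalization gave Slc25a5 -0.0030 there. The cause of these changes was not tested. No called difference between pure tissues turned its sign under the alternatives run. Of 5340 member values under alternatives 13 turned, 134 lost and 83 gained a call, and 94 changed sign with no call in either. Leaving out 1 array gave 21 to 24 calls between liver and brain, 19 to 21 between liver and lung and 16 to 17 between brain and lung, with 11 to 12 enriched in liver, 6 in brain and 3 in lung. It gave 27 to 30, 32 to 34 and 23 to 26 calls in the pairs of mixtures, in the order of the report, and 3 to 5 departures. No paired analysis was possible because the labels give no replicate numbers. Folds of dim members, near the dap controls, are approximate, and 1 animal says nothing about spread between animals.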
